A study of Mus musculus with 4 samples.

Results

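The genes described here are 8 mouse regulators of the mesenchymal state: Twist1, Twist2, Snai1, Snai2, Zeb1, Zeb2, Prrx1 and Tcf4. A ChIP-seq peak was counted for a gene when the authors' peak annotation gave it that gene's symbol, and a gene with no such row was counted as a gene without a peak. By this rule, 42 of the 13977 peaks of the series belonged to 7 of the 8 genes, and Snai1 had none. The series asked where the PR domain protein PRDM6, which smooth muscle cells (SMCs) express, was bound on the genome. The cells were primary outflow tract SMCs from late mouse embryos, grown in culture. All 4 libraries came from cells infected with a lentivirus that overexpressed FLAG-tagged PRDM6, 2 of them PRDM6 ChIP libraries made with an antibody against FLAG and 2 of them Input libraries made without it. The assay therefore recorded the tagged, overexpressed protein, and no library without the lentivirus was analysed here. Per the study's methods, the cultures were positive for the smooth muscle proteins α-actin and calponin. The files analysed here hold no RNA values, so the expression of the 8 genes in these cells was not analysed here.

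Mesenchymal cells are loose, migratory cells that lack the tight junctions of an epithelium. Twist, Snail and Zeb proteins bind E-boxes, short palindrome-like sites in DNA, and are known for turning off epithelial genes such as the one for E-cadherin when epithelial cells become mesenchymal. Twist proteins are basic helix-loop-helix (bHLH) factors that pair with E proteins such as the product of Tcf4, whereas Snail and Zeb proteins bind through zinc fingers and PRRX1 through a homeodomain. In the embryo these factors act in the neural crest and the mesoderm, from which SMCs of the great vessels arise.

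The strength of a peak is given as the −log10 p-value that MACS2 computed against the input. Each peak had such a value in both PRDM6 ChIP replicates, called here the first-listed and the second-listed, and the lower of the 2 was the value of the matched peak. Reproducibility is given as the global irreproducible discovery rate (IDR), the share of irreproducible peaks expected among all peaks ranked at least as high, as estimated from the ranks in both replicates. A low value marks a reproducible peak. The list was deposited without an IDR limit. The transcription start site is abbreviated as TSS. Since the design held 1 condition, all comparisons below are descriptions and no test was run.

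The genome sequence at the summits shows what lay under these peaks. The windows below hold the 201 bases of the plus strand centred on the summit (mm10, GRCm38), written 5′ to 3′. Capitals mark E-boxes (CANNTG), the AP-1 site (TGACTCA or TGAGTCA) and the TEAD site (AGGAATGC, AGGAATGT, GGGAATGC or GGGAATGT), each searched on both strands. The first 5 windows are from the strongest peak of Twist1, Twist2, Prrx1, Zeb2 and Snai2. The last pair are weaker peaks near Twist1 and in Zeb2, shown because an E-box of the form CAGGTG or CACCTG, the form that Snail and Zeb proteins bind, and an AP-1 site were both in the window.
Twist1, chr12:34075942-34076142: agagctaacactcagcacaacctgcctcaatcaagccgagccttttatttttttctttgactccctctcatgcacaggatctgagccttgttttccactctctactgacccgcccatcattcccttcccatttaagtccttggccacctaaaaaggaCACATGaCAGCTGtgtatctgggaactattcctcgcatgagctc
Twist2, chr1:91816552-91816752: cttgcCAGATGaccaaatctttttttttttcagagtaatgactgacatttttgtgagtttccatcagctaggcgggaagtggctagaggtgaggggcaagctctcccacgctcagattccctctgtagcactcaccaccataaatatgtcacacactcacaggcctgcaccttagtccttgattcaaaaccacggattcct
Prrx1, chr1:163280772-163280972: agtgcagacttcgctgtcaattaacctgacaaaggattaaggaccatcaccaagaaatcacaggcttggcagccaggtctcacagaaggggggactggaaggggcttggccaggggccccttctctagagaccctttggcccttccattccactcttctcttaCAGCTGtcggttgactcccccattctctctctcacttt
Zeb2, chr2:45108947-45109147: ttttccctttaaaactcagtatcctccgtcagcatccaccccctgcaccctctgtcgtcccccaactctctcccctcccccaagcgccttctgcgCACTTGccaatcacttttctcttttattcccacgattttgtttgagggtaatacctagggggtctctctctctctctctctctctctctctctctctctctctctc
Snai2, chr16:14705367-14705567: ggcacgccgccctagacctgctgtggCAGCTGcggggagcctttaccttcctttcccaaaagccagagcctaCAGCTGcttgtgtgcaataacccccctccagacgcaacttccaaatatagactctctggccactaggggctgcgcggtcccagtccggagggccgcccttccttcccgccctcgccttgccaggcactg
Twist1, chr12:34144310-34144510: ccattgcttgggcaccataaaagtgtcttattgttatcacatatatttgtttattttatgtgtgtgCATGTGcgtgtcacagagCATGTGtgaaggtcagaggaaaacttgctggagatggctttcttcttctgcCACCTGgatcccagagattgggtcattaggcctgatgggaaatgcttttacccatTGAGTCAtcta
Zeb2, chr2:45019487-45019687: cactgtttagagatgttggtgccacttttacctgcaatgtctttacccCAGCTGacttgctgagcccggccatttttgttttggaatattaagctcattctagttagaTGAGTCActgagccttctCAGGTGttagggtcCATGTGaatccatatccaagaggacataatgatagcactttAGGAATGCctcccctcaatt

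All 5 of these strongest peaks held an E-box within 100 bp of the summit, as did 64.5% of all 13977 peaks. The strongest peaks of Zeb1 and Tcf4, whose sequences are not shown, held one too. The Twist1 window had CACATG and CAGCTG, centred 60 bp and 67 bp after the summit. The Twist2 window had CAGATG at -92 bp, a form that Twist dimers bind. In the Snai2 window CAGCTG occurred at -71 bp and -25 bp, and the Zeb2 window had CACTTG at the summit itself and a run of TC repeats at its end. The weaker Zeb2 window was the only one of the 42 summit windows with a TEAD site: TGAGTCA lay 11 bp, CAGGTG 29 bp and AGGAATGC 85 bp after its summit.

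PRDM6 peaks were assigned to 7 of the 8 genes, while 20.2% of the 21755 protein-coding genes had an assigned peak. The 8 genes were chosen with earlier results of these data known. The contrasts with coding genes here therefore describe these genes and do not show that PRDM6 favours such genes. With only peaks at a global IDR of at most 0.05 it was 3 of the 8, against 1.65% of coding genes, and at 0.01 it was 0, against 0.547%. All 7 had a peak within 3 kb of an annotated TSS, where 8.33% of coding genes had one. Zeb2 had 11 peaks, Zeb1 had 8, Prrx1 and Tcf4 had 6 each, Twist2 had 5, Twist1 had 4 and Snai2 had 2. As many as the 11 peaks of Zeb2 were found for 0.501% of coding genes, as many as the 8 of Zeb1 for 1.19%, and as many as the 6 of Prrx1 or Tcf4 for 2.25%. In total, 6 of the 8 genes had 4 or more peaks, against 4.35% of coding genes. Long coding genes had a peak more often than short ones, so the genes were also set beside coding genes of a broad length class. Of the 5 genes of 40 kb or more (Twist2, Zeb1, Zeb2, Prrx1, Tcf4), 5 had a peak and 5 had one within 3 kb, against 42.0% and 17.4% of all coding genes of that class. The 5 genes were longer than that class, with a median length of 134 kb against 83.2 kb. Of the 3 genes of up to 5 kb (Twist1, Snai1, Snai2), 2 had a peak, and both had it within 3 kb, against 7.36% and 3.0% of coding genes of that length.

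**Figure D1:**
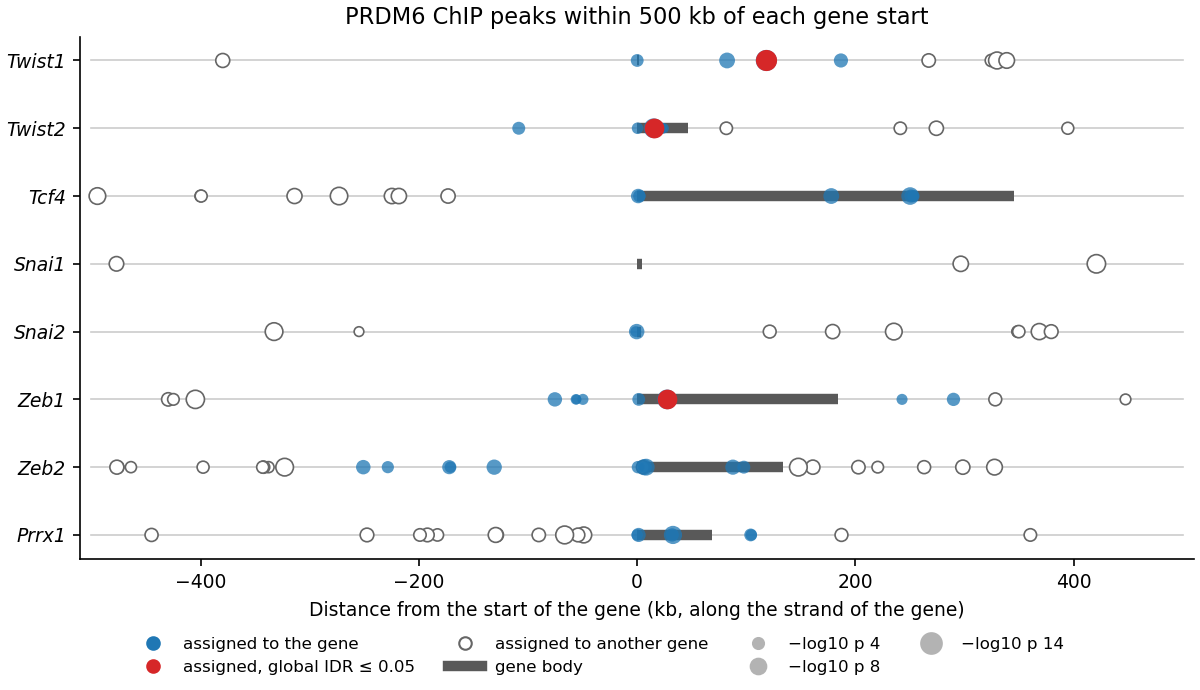
Each row is a gene, the x axis is the distance from its start in kb along its own strand, and each circle is a PRDM6 ChIP peak within 500 kb, with an area that grows with its −log10 p-value. Filled circles are peaks assigned to the gene (red where the global IDR was at most 0.05), open circles are peaks assigned to another gene, and the dark bar is the gene body; Snai1 has no filled circle, and Zeb2 has the most circles of both kinds.

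Twist1, a bHLH factor of the neural crest and limb mesenchyme, lies at chr12:33957671-33959829 on the plus strand and had 4 peaks. Its promoter peak covered the TSS (chr12:33957645-33958008), with −log10 p-values of 5.42 in the first-listed and 8.25 in the second-listed replicate. The strongest of all 42 peaks lay 118.0 kb downstream of the TSS (chr12:34075643-34076996), with values of 16.89 and 14.71 and a global IDR of 0.0117. This peak sat in intron 24 of 24 of the neighbouring gene Hdac9, which encodes a histone deacetylase and whose locus is known to hold enhancers of Twist1. Another peak, 186.6 kb downstream, sat in intron 21 of 24 of Hdac9, with values of 6.92 and 6.61. The fourth, 81.9 kb downstream and between the genes, reached 11.12 and 8.25 and was 2145 bp wide. The peak in intron 24 was thus the highest of Twist1 in both replicates, and the promoter peak was the lowest in the first-listed one.

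Twist2, the close relative of Twist1 that acts in dermal and muscle mesenchyme, lies at chr1:91801461-91848028 on the plus strand and had 5 peaks, 4 of them in the gene body. Its strongest peak (chr1:91816334-91816985) was in the gene's single intron, 14.9 kb after the TSS, with values of 15.36 and 12.89 and a global IDR of 0.0251. The summits of the replicates lay 2 bp apart there. The other 4 peaks were much weaker. The promoter peak covered the TSS (chr1:91801319-91802216), with values of 5.85 and 4.39, and overlapped the antisense transcript Gm29100. A peak 22.1 kb after the TSS, over an exon of the non-coding gene Gm29101, had values of 4.11 and 5.1, and one 24.0 kb after the TSS had 4.58 and 3.68. The upstream peak at -108.0 kb had 5.53 and 8.25. The intron peak of Twist2 was above all of these in both replicates.

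Tcf4, which encodes the E protein E2-2, a dimer partner of Twist proteins, lies at chr18:69343356-69689079 on the plus strand and had 6 peaks. All 6 were within 3 kb of a TSS and in the gene body, because the gene has several internal TSSs, and 5 of them covered one. The peaks lay at 3 places. At the 5′ end, 2 peaks 30 bp apart had values of 6.92 and 7.76, and of 6.15 and 5.1. The peak at chr18:69520861-69521763 had 8.52 and 8.25, and the strongest (chr18:69593078-69594029) had 10.23 and 10.39. The other 2 peaks beside it had 5.69 and 6.61, and 5.0 and 5.1. The replicates differed by at most 1.06 in any peak of Tcf4, the smallest such limit of the 7 genes, as its nearly level lines in the plot of peak strength show.

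Snai2, which encodes the zinc finger repressor SLUG, lies at chr16:14705852-14709385 on the plus strand and had 2 peaks, both upstream of its TSS. The nearer (chr16:14705144-14705701) ended 151 bp before the TSS and had values of 7.87 and 12.76. The farther (chr16:14704245-14704971) ended 881 bp before the TSS and had values of 5.43 and 3.83. The nearer peak was the higher in both replicates, and the farther one had the lowest score of the list, 48, which stood for a global IDR of 0.759.

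Snai1, which encodes the Snail repressor and lies at chr2:167538195-167542814, had no assigned peak. The nearest summit was 296544 bp away, between genes, and was assigned to Ptpn1, a tyrosine phosphatase gene, with values of 7.71 and 8.25. Only 3 peaks lay within 500 kb of the Snai1 TSS, and 62.1% of coding genes had as many. The list holds only peaks that were called in both replicates, so weaker binding at Snai1 would not be seen in it.

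Zeb2, a zinc finger and homeodomain repressor needed in the neural crest, lies at chr2:44983632-45117395 on the minus strand and had 11 peaks. Of these, 4 were within 3 kb of a TSS, at the 5′ end of the gene between 45108378 and 45116885. The strongest of them by the matched value (chr2:45108378-45109239) had values of 9.37 and 9.98, with 17 fragments at the summit in each replicate. Its neighbours differed more between the replicates. The peak at chr2:45109855-45110731 had 12.95 in the first-listed replicate and 4.39 in the second-listed, and that at chr2:45110777-45111773 had 8.52 and 12.76. The peak at chr2:45116153-45116885 had 10.23 and 5.1. Within the gene, the peak in intron 3 of 10 (chr2:45029155-45029957) had 7.61 and 13.05, and that in intron 4 (chr2:45019388-45019777) had 5.53 and 6.61. The other 5 peaks lay upstream at -130.5 kb, -170.8 kb, -171.6 kb, -227.8 kb and -249.8 kb, with matched values between 4.3 and 7.71, the farthest in an intron of the lincRNA gene Gm13479. Zeb2 was the only gene whose strongest peak differed between the replicates, and none of its peaks reached a global IDR of 0.05.

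Zeb1, the relative of Zeb2 and a repressor of E-cadherin, lies at chr18:5591860-5775467 on the plus strand and had 8 peaks. The strongest (chr18:5618883-5620072), 24.7 kb from the assigned TSS in an intron, had values of 15.85 and 12.76 and a global IDR of 0.024. It reached 24 fragments in the first-listed replicate and 20 in the second-listed, over background means of 2.61 and 2.39 fragments. No other peak of Zeb1 was above 10.39 in either replicate. The promoter peak (chr18:5592635-5594068) covered a TSS, with values of 5.42 and 8.72. Upstream, 4 peaks between -74.8 kb and -49.5 kb lay in introns of Gm10125, a non-coding gene on the opposite strand, and 3 of these had the lowest score of the list. The remaining pair lay beyond the 3′ end, 103.4 kb and 150.4 kb from the nearest TSS used by the annotation, with matched values of 4.04 and 5.84.

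Prrx1, a homeobox gene of limb, skeletal and vascular mesenchyme, lies at chr1:163245119-163313710 on the minus strand and had 6 peaks. Its strongest peak (chr1:163280035-163281239), 8.0 kb from the nearest annotated TSS, had values of 10.94 and 19.9, the highest second-listed value among the 42 peaks, with 27 fragments at the summit. It overlapped an exon of the antisense gene Gm20471. Its global IDR of 0.0537 put it just above 0.05. A weaker peak 259 bp beside it had 6.92 and 5.84. At the promoter, the peak over the TSS (chr1:163312591-163314103) had 4.33 and 6.96 and its neighbour, 90 bp away, had 8.52 and 6.61. The last pair lay 79.3 kb and 80.0 kb from the assigned TSS and 154 bp apart, with matched values of 5.42 and 4.3.

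**Figure D2:**
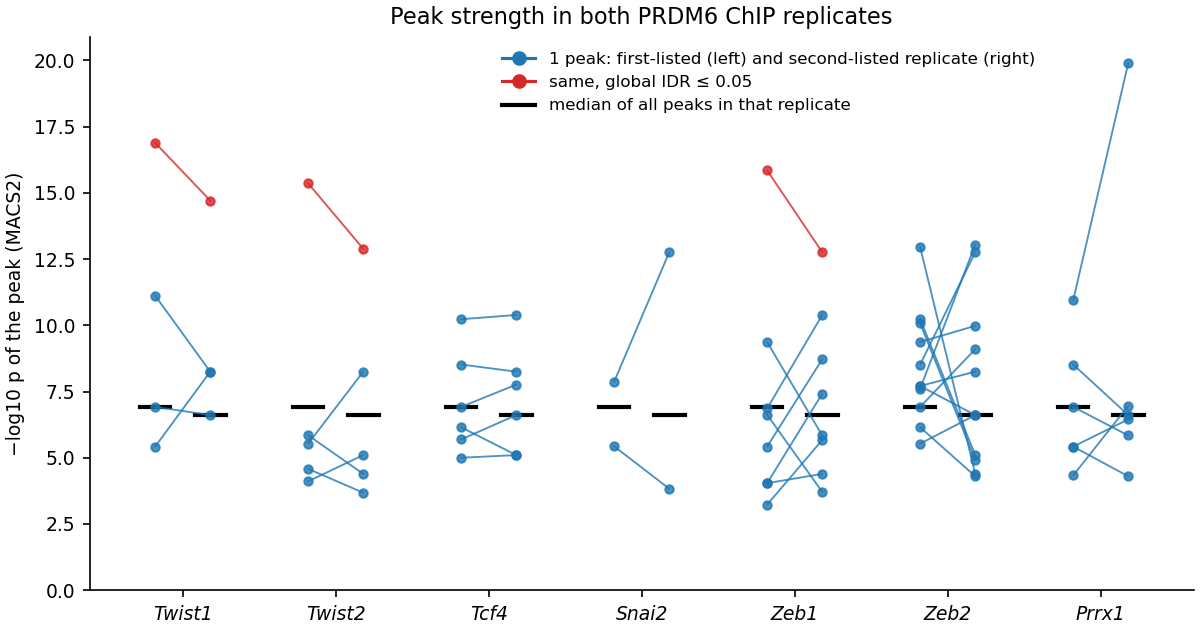
Each line is 1 of the 42 peaks, drawn from its −log10 p-value in the first-listed replicate (left point) to that in the second-listed (right point), grouped by gene, with the medians of all 13977 peaks as black bars (6.92 and 6.61). The red lines are the peaks of Twist1, Twist2 and Zeb1 with a global IDR of at most 0.05, and the steepest rise is the Prrx1 peak with 10.94 and 19.9.

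In 6 of the 7 genes the strongest peak was the same peak in both replicates. For Snai2, Tcf4 and Zeb2 the peak with the highest matched value was within 3 kb of a TSS, while for Twist1, Twist2, Zeb1 and Prrx1 it was away from the promoter. As a set, the 42 peaks were about as strong as the rest of the list. Their matched −log10 p-value had a median of 5.61 with quartiles of 4.39 and 7.68, against 5.53 with quartiles of 4.39 and 6.92 for all peaks. In the first-listed replicate both medians were 6.92, and in the second-listed both were 6.61. The second-listed value was the higher in 22 of the 42 peaks (52.4%), against 47.9% of all peaks. Across the 42 peaks, which share 2 libraries and 7 genes, the Spearman correlation between the replicates was 0.478, and it was 0.263 across all 13977 peaks. Between the replicates the summits of a peak differed in position by a median of 153 bp, against 121 bp.

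Reproducible peaks were few. A global IDR of at most 0.05 was reached by 3 of the 42 peaks (7.14%, 95% Wilson interval 2.46% to 19%), those of Twist1, Twist2 and Zeb1 above, against 3.33% of all peaks, which lies within the interval. All 3 were away from a promoter. At the other end, 15 of the 42 peaks (35.7%, 23.0% to 50.8%) had the lowest score, against 41.4% of all peaks. These intervals cover counting error over peaks only, and peaks of the same gene are not independent. Read depth is not in the list, but the height of a peak in fragments could be read back from the p-value for 24 of the 42 peaks in the first-listed replicate and 28 in the second-listed. These peaks were 10 to 24 fragments high in the first-listed replicate, with a median of 14.5, and 9 to 27 in the second-listed, with a median of 13. Over all peaks the medians were 14 and 13.

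A larger share of the 42 peaks than of the whole list lay close to a TSS. Within 3 kb were 17 (40.5%, 27.0% to 55.5%), against 21.3% of all peaks, and 11 (26.2%) covered a TSS, against 6.64%. Tcf4 gave 6 of the 17, and without it 11 of 36 peaks (30.6%) were within 3 kb. Between 3 kb and 100 kb were 15 peaks (35.7%), against 59.4%, and beyond 100 kb were 10 (23.8%), against 19.3%. The 10 far peaks belonged to Zeb2 with 5, to Twist1 and Zeb1 with 2 each and to Twist2 with 1. The median distance was 11429 bp, against 22731 bp. Without Tcf4 it lay above that of all peaks, between the 23999 bp of a Twist2 peak and the 24680 bp of a Zeb1 peak. Near peaks were not stronger: the median matched value was 5.42 within 3 kb and 5.84 farther away, and over all peaks it was 5.42 and 5.67. The 201 bp windows of the near peaks had a median GC content of 53.2% and a median of 10 CpG sites, against 48.8% and 4 for all near peaks.

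The peaks also lay close to each other. Another peak was within 1 kb of 19 of the 42 (45.2%, 31.2% to 60.1%), against 25.9% of all peaks, as at the 5′ ends of Zeb2 and Tcf4 and at 3 places of Prrx1. When peaks within 1 kb were merged, an alternative chosen after the data were seen, 32 places remained, of which 11 (34.4%) held a peak within 3 kb of a TSS. The same share over the whole list after merging is not given here, so 34.4% has no background beside it. A count made after the values were seen was that of non-coding RNA genes, which 12 of the 42 peaks (28.6%) overlapped, against 11.9% of all peaks. Of the 12, 5 were at Zeb1, all in Gm10125, 3 at Zeb2, and 2 each at Twist2 and Prrx1. None of the peaks of Twist1, Snai2 or Tcf4 overlapped such a gene.

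Short sequence motifs were counted around the summits and set beside the same counts for the whole list. An E-box was within 100 bp of 29 of the 42 summits (69.0%, 54.0% to 80.9%), against 64.5% of all summits. The Snail and Zeb form, CAGGTG or CACCTG, was there in 3 (7.14%, 2.46% to 19%), against 8.94%, at Twist1, Zeb1 and Zeb2. The form CATCTG or CAGATG was there in 8 (19%, 9.98% to 33.3%), against 14.6%. With the summit of the first-listed replicate alone that count was 5 (11.9%, against 14.3%), and with that of the second-listed it was 12 (28.6%, against 15.5%), so its side of the background changed with the replicate. Both forms are also counted among the E-boxes. AP-1 sites were found at 5 summits (11.9%, 5.19% to 25.0%), against 14.3%, and a TEAD site at 1 (2.38%, 0.422% to 12.3%), against 7.45%. With 1 to 8 hits for the rarer motifs the intervals were wide, and all 5 backgrounds lay within them, which does not show that the shares were alike. In each of the other windows tried, from 50 bp to the whole peak, the shares of AP-1 and TEAD were also below those of all peaks. A match is only a string of letters in the window and shows no bound factor.

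Counted without regard to the assigned gene, 107 peaks lay within 500 kb of the 8 TSSs. Zeb2 had 28, Prrx1 had 19, Tcf4 had 14, Zeb1 had 13, Snai2 had 12, Twist1 and Twist2 had 9 each and Snai1 had 3. The median over coding genes was 4 and the mean 5.4, so the Snai1 window alone was below the median. As many peaks as around Zeb2 were found around 0.308% of coding genes, and as many as around Prrx1 around 3.34%. Many of these peaks were assigned to neighbours. Around Zeb2, 9 belonged to 1700019E08Rik and 7 to Gtdc1, which encodes a glycosyltransferase-like protein. Around Prrx1, 10 belonged to Gorab, a gene of a Golgi protein. Around Snai2, 8 belonged to Efcab1 and 2 to Abcc1, a transporter gene. Around Twist1 and Twist2, 4 each belonged to the histone deacetylase genes Hdac9 and Hdac4. Around Zeb1, 3 belonged to Gm26682 and 2 to Arhgap12, and around Tcf4, 5 belonged to Mir145b and 3 to 4930546C10Rik. Around Snai1, 2 belonged to Ptpn1. The neighbours thus held most of the peaks around Zeb2, Prrx1, Snai2, Tcf4, Twist1 and Snai1, and fewer than the gene itself around Twist2 and Zeb1.

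**Figure D3:**
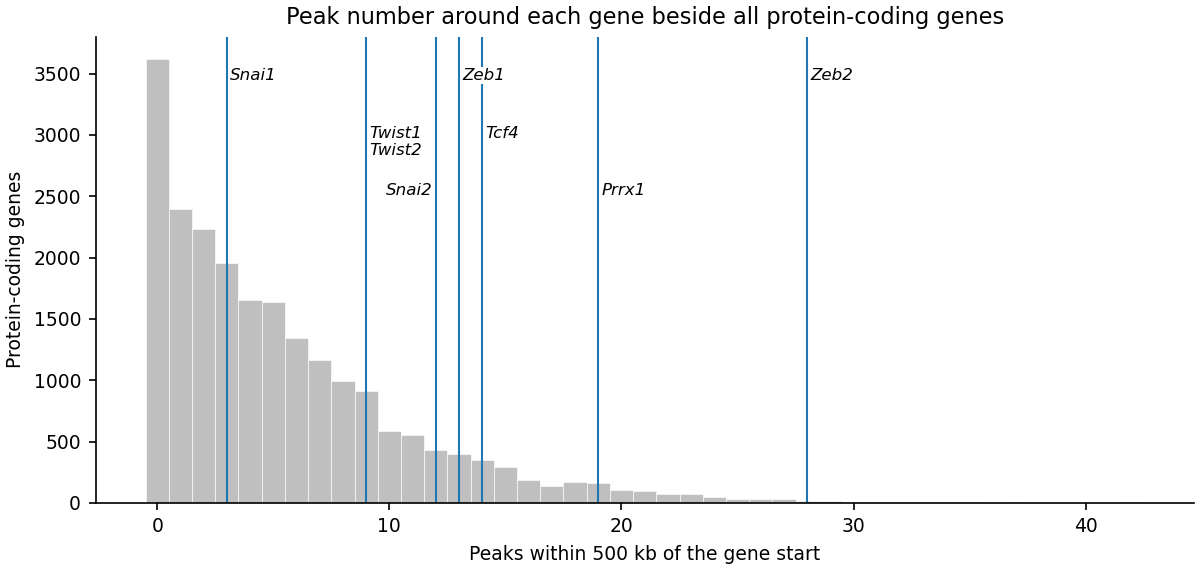
The x axis is the number of PRDM6 ChIP peaks within 500 kb of a gene start, and the grey bars give the number of protein-coding genes with each number, 21755 in all. Vertical lines mark the 8 genes, from Snai1 with 3 peaks to Zeb2 with 28.

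The way peaks are given to genes changed the numbers of several genes. By overlap with the gene body or 3 kb before it, Zeb1 had 2 peaks in place of 8, Twist1 had 1 in place of 4, Zeb2 had 7 in place of 11, Prrx1 had 4 in place of 6 and Twist2 had 4 in place of 5. When each peak went to the nearest protein-coding TSS of the reference, Zeb2 had 35 peaks in place of 11 and Tcf4 had 13 in place of 6, while Twist1, Twist2, Snai1, Snai2, Zeb1 and Prrx1 kept their numbers. The 35 peaks were spread from 45019388 to 46581995 on chromosome 2, over 1560 kb, with no value of the global IDR at or below 0.05. When all peaks in the gene body and 100 kb on each side were counted, whatever gene they were assigned to, Prrx1 had 10 and Zeb2 had 11. Per 100 kb of that stretch this gave 3.72 for Prrx1 and 3.3 for Zeb2, so both the assignment and the length enter these values.

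Genes related to these factors were described from lists, which were chosen with earlier results of these data known. Among 17 relatives and partners, 7 (41.2%) had a peak and 4 had one within 3 kb, against 20.2% and 8.33% of all coding genes. They held 23 peaks of median strength 5.42. Tcf12, which encodes another E protein, had 10 peaks, none above a matched value of 7.71. The Id genes encode HLH proteins that sequester E proteins. Id2 had 4 peaks, all at its promoter, with matched values of 3.71 to 6.15. Id3 had 3 peaks, the strongest at chr4:136122959-136124128, at -19369 bp, with values of 17.86 and 12.76 and a global IDR of 0.0186. Tcf15, a bHLH gene of the somites, had a single peak (chr2:152180129-152180725) with 15.27 and 13.73 and a global IDR of 0.0219. Ctbp2, which encodes a corepressor of Zeb proteins, had 3 peaks, the strongest with 12.03 and 13.05.

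Epithelial genes, of the kind that the family is known to turn off, and mesenchymal genes were counted apart. Of 12 epithelial genes, among them Cdh1 for E-cadherin, Epcam and the claudin genes, 1 (8.33%) had a peak and none had one within 3 kb, against 20.2% and 8.33% of all coding genes, so the count of 0 within 3 kb is near the share of all genes. It was Ocln, the gene of the tight junction protein occludin, named because it was the only one, with an intron peak of 6.15 and 9.98. Of 12 mesenchymal genes, 11 (91.7%) had a peak, all but Fn1, the fibronectin gene, against 20.2% of all coding genes. Within 3 kb 10 had one, against 8.33% of all coding genes. The mesenchymal genes held 64 peaks with a median strength of 5.42, beside 5.61 for the 42 peaks above and 5.53 for all peaks. Those with a promoter peak were Cdh2, Cdh11, Vim, Col1a1, Col1a2, Col3a1, Postn, Tnc, S100a4 and Acta2, which encode cadherins, vimentin, collagens, matrix proteins, a calcium-binding protein and smooth muscle actin. The Col3a1 peak at chr1:45308962-45314927 was 5966 bp wide, the widest of the series, with values of 21.0 and 11.81. None of the 5 genes of the miR-200 family, microRNAs that target Zeb1 and Zeb2 transcripts, had a peak, where 7.36% of coding genes of up to 5 kb had one, so a count of 0 of 5 is near that share.

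The lists also differed in gene length. Among genes under 40 kb, 8 of 8 mesenchymal and 0 of 8 epithelial genes had a peak, against 11.7% of coding genes, and 7 and 0 had it within 3 kb, against 4.78%. The median length in that class was 21.5 kb for the mesenchymal, 6.74 kb for the epithelial and 10.2 kb for all coding genes. Among longer genes the numbers with a peak were 3 of 4 and 1 of 4, against 42.0%, with median lengths of 120 kb, 61.6 kb and 83.2 kb. The mesenchymal genes were thus the longer ones in both classes, and the part of length in the difference was not tested. Among relatives and partners 5 of 14 genes under 40 kb (35.7%) and 2 of 3 longer genes had a peak, with median lengths of 4.46 kb and 137 kb. The part that expression of these genes in the cells plays was not tested, since no RNA values were used here.

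**Figure D4:**
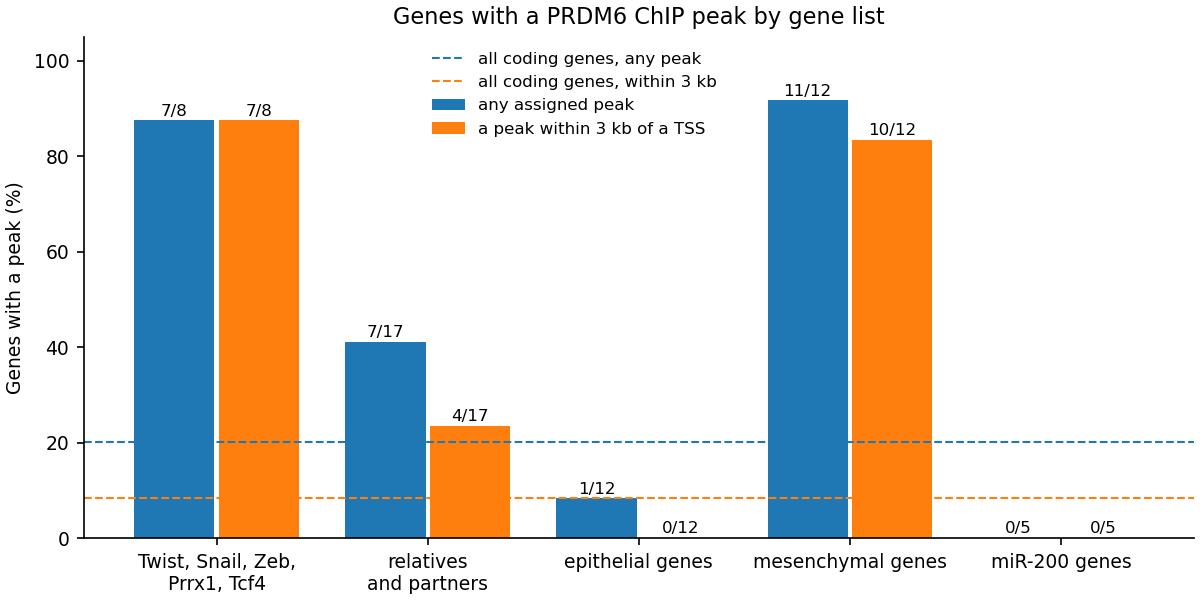
Bars give the percentage of the genes of each list with any assigned peak (blue) or with a peak within 3 kb of a TSS (orange), with the counts above them, and dashed lines give the same for protein-coding genes of every length (20.2% and 8.33%). The 8 regulators and the mesenchymal genes stand far above the lines, and the epithelial and miR-200 genes at or below them. All of these lists were chosen with earlier results of these data known, so the bars are descriptions only.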

How the data were processed

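The data were 2 PRDM6 ChIP and 2 Input libraries, summarised in a single list of matched peaks and its annotation. The authors aligned reads to mm10 with BWA, kept a mapping quality of at least 13, called peaks per replicate against input with MACS2 (p-value limit 0.001) and matched them by IDR. The deposited score is a scaled IDR (540 at 0.05, 830 at 0.01). The deposited −log10 p-values are those of each replicate and of the matched peak, beside −log10 IDR values. Signal and q-value columns held only a placeholder, and strength is therefore the −log10 p-value. The replicates are named only by order, and the study's text describes them both as from the same sample and as independent, so their spread may be technical. The list holds no Input value and no read total.

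Peaks were joined to their annotation by position. Gene models came from GENCODE M21 and sequence from GRCm38, the build of the files. Peak heights were read from Poisson tails within 0.0002. Motifs were searched within 100 bp of the summit. Wilson intervals (95%) cover counting error only. The height and motif searches were tested on simulated data. SciPy 1.17.1, pandas 2.3.3, pysam 0.24.0, NumPy 2.4.6 and matplotlib 3.10.9 were run under Python 3.11.15. All 8 genes are named with every peak; genes of the lists are named if they had a peak within 3 kb or with a global IDR of at most 0.05, and window neighbours if they had 2 or more peaks. The 8 genes and the lists were chosen with earlier results of these data known. Alternatives were other IDR limits, distances, assignments, motif windows and each replicate alone.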

Additional observations from a re-analysis of the deposited data

How the results depend on the processing

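The number of genes with a peak, 7, was the same for peaks within 100 kb or 10 kb of the TSS, for overlap with the gene body or 3 kb before it and for the nearest protein-coding TSS, but it was 3 at a global IDR of at most 0.05 and 0 at 0.01. The 42 peaks became 3 at 0.05 and 0 at 0.01, 21 within 10 kb, 26 by overlap and 73 by the nearest protein-coding TSS. The count of peaks at a global IDR of at most 0.05, 3, was 0 at 0.01 and 4 at 0.10. The median strength of 5.61 was 6.61 to 6.92 with a single replicate, since the matched value is the lower of both, and the median IDR score was 117.5. The 17 peaks within 3 kb were 11 without Tcf4, an alternative chosen after the data were seen. AP-1 sites were found at 2 summits within 50 bp (4.76%, against 7.61% of all peaks), 8 within 200 bp (19%, against 26.2%) and 13 in whole peaks (31.0%, against 34.3%). TEAD sites were found at 0 (against 4.09%), 3 (7.14%, against 13.2%) and 4 (9.52%, against 19.2%), and at 0 around the second-listed summit (against 6.83%). The form CATCTG or CAGATG, at 8 summits, was at 5 to 12 with the summit of a single replicate, at 6 within 50 bp (14.3%, against 7.57%), 13 within 200 bp (31.0%, against 26.6%) and 17 in whole peaks (40.5%, against 40.3%). The form CAGGTG or CACCTG, at 3, was at 3 within 50 bp (7.14%, against 4.84%), 7 within 200 bp (16.7%, against 15.8%) and 9 in whole peaks (21.4%, against 26.9%). E-box counts, 21 to 38, stayed within 1.5 times the reported one, but their side of the background changed with the distance searched. The E-box share was above that of all peaks within 50 bp or 100 bp and around the summit of either replicate. It was below that of all peaks within 200 bp (83.3%, against 86.0%) and in whole peaks (90.5%, against 90.8%). The windows held 32 peaks at 100 kb, 61 at 250 kb and 185 at 1 Mb. Zeb2 had the most peaks, but within 100 kb it tied with Zeb1, Prrx1 and Tcf4 at 6, and per 100 kb of the gene body with 100 kb on each side, counting peaks of any assigned gene, Prrx1 led with 3.72. No paired analysis was possible because the list holds no Input values and names the replicates only by order.

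The heights read back, 9 to 27 fragments, limit what the counts show, and all but 3 of the 42 peaks were above a global IDR of 0.05. Absence from the list, as for Snai1, says only that no peak was called in both replicates.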
